A study of Homo sapiens with 6 samples.

Results

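The genes described here encode the NF-κB subunits (RELA, RELB, REL, NFKB1 and NFKB2) and the kinase side of the pathway, namely the IκB kinase (IKK) complex and 2 kinases linked to it (CHUK, IKBKB, IKBKG, MAP3K14 and TBK1). They were chosen by name from the table of read counts, in which all 10 were found among 58735 genes. RNA was measured 48 hours after transfection of MCF10A, an established and nontumorigenic line of breast epithelium. The 3 siDAB2IP libraries came from cells that received siRNA against DAB2IP, a RasGAP and scaffold protein known to restrain RAS and TNF signaling, and the 3 siControl libraries from cells that received a nontargeting pool. All cells grew in the same medium with horse serum, insulin, epidermal growth factor, cholera toxin and hydrocortisone, the last of which is a glucocorticoid. A single siRNA reagent was used on a single cell line, and the labels do not say whether the replicates are separate cultures, so p-values measure the spread between these libraries, which may be technical.

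NF-κB transcription factors are dimers of Rel-family proteins. RELA, RELB and REL carry transactivation domains, whereas NFKB1 and NFKB2 encode the precursors p105 and p100, which are processed to p50 and p52. In the canonical pathway, IKKβ (IKBKB), held in a complex with IKKα (CHUK) and the scaffold NEMO (IKBKG), marks IκB proteins for degradation, and mainly p50/RELA dimers are released. In the noncanonical pathway, the kinase NIK (MAP3K14) acts through IKKα on p100, and p52/RELB dimers are formed. TBK1 is an IKK-related kinase best known for the interferon response. In breast epithelium, the canonical pathway responds to TNF and IL-1, and the noncanonical pathway to receptors such as RANK and LTBR. RNA counts measure the transcripts of these genes and not p100 processing, phosphorylation or nuclear location.

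The libraries held between 16353783 and 21916062 counts. Expression is given as CPM, the read count scaled to the library total with TMM factors, and levels of different genes are compared as FPKM, which the authors divided by gene length. DAB2IP, the targeted gene, was at 103, 94.2 and 77.4 CPM in the siControl libraries and at 27.5, 25.6 and 22.4 CPM in the siDAB2IP libraries, which is a log2 fold change of −1.86 (standard error, SE, 0.13, edgeR adjusted p = 9.71e-05). Of 8 basal mammary epithelial markers, all were expressed in every library, with KRT5 at 406 FPKM or more. Their summed FPKM was between 2282 and 2869 in the siControl libraries and between 1214 and 1613 in the siDAB2IP libraries, and the part of this difference in the results below was not tested. Of these markers, KRT5, KRT14 and KRT17 fell, and the other 5 did not pass the test, with log2 fold changes of 0.03 for EGFR, 0.09 for CDH1, 0.12 for ITGB4, −0.45 for ITGA6 and −0.57 for TP63. In bulk RNA, fewer cells of a type and less RNA per cell cannot be told apart. Of the leukocyte markers, CD3E had 0 counts in every library and PTPRC reached at most 0.0201 FPKM, whereas CD14 was at 18.8 to 40.5 FPKM. The summed level of the leukocyte markers was 18.8 to 36.8 FPKM in the siControl libraries and 25.9 to 40.5 FPKM in the siDAB2IP libraries. That of 5 fibroblast and endothelial markers was 2.88 to 3.57 and 3.42 to 4.12 FPKM, respectively, with COL1A2 and PDGFRA at or near 0. Of this list, COL1A1 rose from 1.54 to 2.65 FPKM (edgeR adjusted p = 0.0129). PECAM1 and CDH5 had lower estimates and did not pass the test. On average in siControl and siDAB2IP, PECAM1 was at 1.10 and 0.679 FPKM (edgeR adjusted p = 0.0919) and CDH5 at 0.599 and 0.429 FPKM (edgeR adjusted p = 0.351). The summed level of 4 luminal markers was 5.80 to 7.61 FPKM in siControl and 5.99 to 7.24 FPKM in siDAB2IP, with PGR at 0 in every library and ESR1 at 0.0435 FPKM or less. FOXA1 rose from 1.16 to 2.40 FPKM (edgeR adjusted p = 0.0274), and GATA3 was at 5.79 and 4.21 FPKM on average in siControl and siDAB2IP (edgeR adjusted p = 0.0616).

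DAB2IP knockdown changed 2 of the 10 genes past the threshold, an adjusted p under 0.05 from edgeR's quasi-likelihood test over all 15430 genes tested. NFKB1 fell and IKBKG rose, and the other 8 did not pass. A call of 1 in 10 for a rise and 1 in 10 for a fall stands beside 6.55% of all tested genes that rose and 7.65% that fell. All 10 genes passed the filter on low counts. The median log2 fold change of the 10 genes was 0.11, against 0.01 over all genes tested, and 6 had a higher and 4 a lower estimate in the siDAB2IP libraries. In CPM, 6 of the 10 genes had groups that did not overlap, against 35.9% of all genes tested, but for RELA and IKBKB the gap between the groups was under 1 CPM. Both calls depended on single control libraries. Without siControl replicate 2, neither passed (adjusted p from edgeR 0.0828 for NFKB1 and 0.0823 for IKBKG), and the same held without siControl replicate 3 (0.059 and 0.0637).

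**Figure D1:**
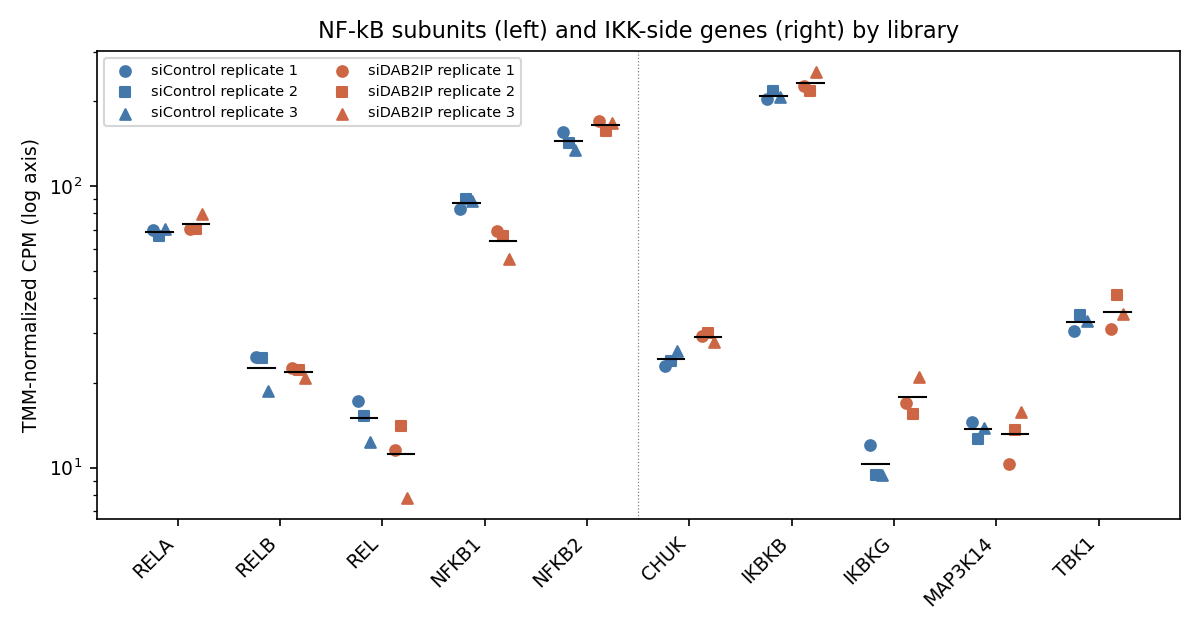
TMM-normalized CPM on a log axis of the 10 genes in each of the 6 libraries (circles, squares and triangles are replicates 1, 2 and 3, and lines are group means). The siDAB2IP points of NFKB1 all lie below its siControl points, and those of IKBKG all lie above.

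Among the subunit genes, NFKB1 was the one that passed the test. NFKB1 (ENSG00000109320) encodes p105, the precursor of p50, and lies on the plus strand of chromosome 4 from 102501329 to 102617302 (GRCh38). Its expression was 83.2, 90.3 and 88.7 CPM in the siControl libraries and 69.3, 66.4 and 55.1 CPM in the siDAB2IP libraries. Each siDAB2IP library was thus below each siControl library. The log2 fold change was −0.46 (SE 0.11, edgeR adjusted p = 0.0217), so that expression fell by 27.2% (95% interval 14.0% to 38.4% lower). Within replicate numbers, the log2 ratio was −0.26, −0.44 and −0.69, and replicate 3 was lowest. The fold change lay between −0.53 and −0.36 over all 14 alternative fits, and the call was kept in 12 of them.

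NFKB2 (ENSG00000077150), the gene for p100 and p52, lies on chromosome 10 from 102394110 to 102402529, plus strand. It had 156, 143 and 134 CPM in the siControl libraries and 171, 157 and 168 CPM in the siDAB2IP libraries. The groups did not overlap, although the lowest siDAB2IP library was within 2 CPM of the highest siControl library. The log2 fold change of 0.20 (95% interval −0.02 to 0.41) did not pass the threshold (edgeR adjusted p = 0.212). NFKB2 and NFKB1 thus had estimates of opposite sign, and the difference is described by their ratio below.

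REL (ENSG00000162924), which encodes c-Rel, a subunit best known from lymphocytes, lies on chromosome 2 from 60881521 to 60931610. It was at 17.3, 15.3 and 12.3 CPM in the siControl libraries and at 11.6, 14.1 and 7.83 CPM in the siDAB2IP libraries. The groups overlapped, and replicate 3 was the lowest of each group. The log2 fold change was −0.42 with a wide 95% interval of −0.90 to 0.06 (edgeR adjusted p = 0.225).

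RELA (ENSG00000173039), the gene for p65, lies on the minus strand of chromosome 11 from 65653596 to 65663094. It was at 69.6, 66.5 and 70.5 CPM in the siControl libraries and at 70.5, 70.6 and 79.3 CPM in the siDAB2IP libraries. The third siDAB2IP library was higher and the other 5 were nearly level. The log2 fold change was 0.09 (95% interval −0.11 to 0.30, edgeR adjusted p = 0.551), which limits a change of RELA RNA to between 7.60% lower and 23.2% higher. RELB (ENSG00000104856), the partner of p52, lies on chromosome 19 from 45001430 to 45038198. Its values were 24.7, 24.5 and 18.8 CPM in the siControl libraries and 22.7, 22.3 and 20.9 CPM in the siDAB2IP libraries. The siDAB2IP libraries all lay within the range of the controls, and the log2 fold change was −0.05 (95% interval −0.36 to 0.26, edgeR adjusted p = 0.859).

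NFKB1, NFKB2, REL and RELB are widely described as NF-κB targets themselves, and their promoters are shown for this reason. RefSeq promoter windows on GRCh38.p14, from 250 bases before to 50 after a start, were at hand for 8 of the 10 genes in 15 windows, and none was at hand for RELB and IKBKB. The κB consensus, searched on both strands, matched in 4 of the 15 windows (26.7%), which belong to REL, NFKB1 and NFKB2, and in 11.3% of all 35116 windows. A match describes letters only, and windows of a gene can overlap. In the stretches below, read along the plus strand, capitals mark the matched letters, with adjoining matches merged. The NFKB1 stretch is at chr4:102501300-102501329, the REL stretch at chr2:60881517-60881547, and the NFKB2 stretches are at chr10:102394461-102394491, chr10:102394490-102394519 and chr10:102395674-102395703.
NFKB1: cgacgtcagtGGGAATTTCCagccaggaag
REL: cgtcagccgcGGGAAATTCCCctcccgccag
NFKB2, upstream match: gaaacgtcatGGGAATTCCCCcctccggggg
NFKB2, next match: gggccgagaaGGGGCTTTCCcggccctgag
NFKB2, second start: tggtattttcGGGACTTTCCtaagctgctc

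The match lay 49 to 40 bases before the RefSeq start in NFKB1 and 47 to 37 bases before it in REL. Those in NFKB2 lay 107 to 97 and 78 to 69 bases before one start and 21 to 12 bases before another, and a further match lay 176 to 167 bases before the latter. The estimates of the genes that share these letters differed in sign, with log2 fold changes of −0.46 for NFKB1, −0.42 for REL and 0.20 for NFKB2, of which NFKB1 alone passed the threshold. The GC box GGGCGG was found in 9 of the 15 windows (60%), against 45% of all windows, and the TATA box TATAAA in none of the 15, against 11.5% of all windows.

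The make-up of the subunit transcripts was compared as each gene's share of the summed FPKM of the 5 subunits, which does not depend on the scaling between libraries. The sum itself was 69.5, 67.3 and 63.5 FPKM in the siControl libraries and 69.8, 66.3 and 67.4 FPKM in the siDAB2IP libraries, with overlapping groups. NFKB2 made up the largest share, with 49.5%, 47.1% and 46.7% in the siControl libraries and 54.1%, 52.4% and 54.8% in the siDAB2IP libraries. NFKB1 made up 18.9%, 21.3% and 22.1% in the siControl libraries and 15.7%, 15.8% and 12.9% in the siDAB2IP libraries. Neither share overlapped between the groups, with a mean difference of 6.01 percentage points for NFKB2 and −5.95 for NFKB1 (two-sided exact permutation test, p = 0.1 for each, the smallest that 3 libraries against 3 allow, and 0.25 adjusted over the 5 shares). The shares of RELA (18.7% and 19.6% on average in siControl and siDAB2IP) and RELB (11.1% and 10.5%) overlapped between the groups (exact permutation test, p = 0.5 for each). That of REL was 1.68% in siControl and 1.24% in siDAB2IP on average (exact permutation test, p = 0.2).

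The ratio of NFKB2 to NFKB1 FPKM was 2.62, 2.21 and 2.12 in the siControl libraries and 3.44, 3.31 and 4.25 in the siDAB2IP libraries. Its mean was 2.31 ± 0.267 in siControl and 3.67 ± 0.509 in siDAB2IP (SD, n = 3 libraries a group; two-sided exact permutation test, p = 0.1, the smallest possible). The difference lay between 1.06 and 1.53 when each library was left out in turn, and the lower value was obtained without siDAB2IP replicate 3. The NFKB2 share and the ratio were therefore higher, and the NFKB1 share lower, in every siDAB2IP library than in every siControl library. These readings are not independent, since the shares of a library add to a fixed total and the ratio uses the same genes. A lower NFKB1 level alone would raise the NFKB2 share and the ratio, and NFKB2 itself did not pass the threshold (edgeR adjusted p = 0.212). This design cannot bring an exact permutation test under 0.05.

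**Figure D2:**
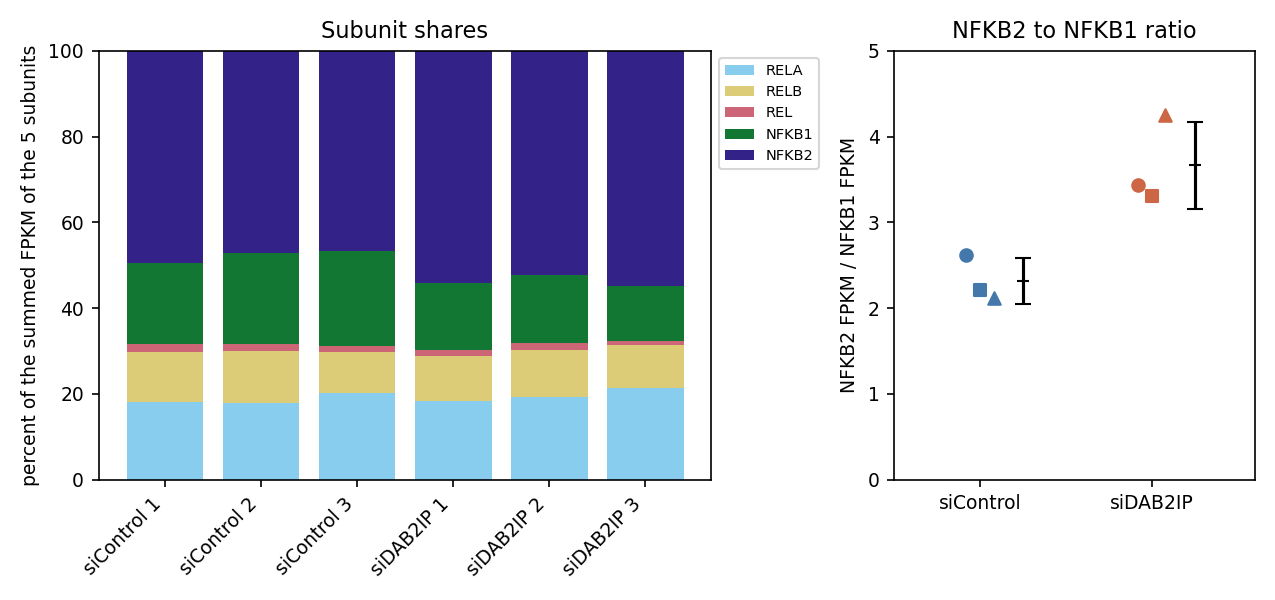
Left, the percent of the summed FPKM of the 5 subunit genes in each library, stacked to 100. Right, the ratio of NFKB2 to NFKB1 FPKM per library (circle, square and triangle are replicates 1, 2 and 3) with the mean ± SD of each group, 2.31 in siControl and 3.67 in siDAB2IP.

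On the kinase side, IKBKG was the gene that passed the test. IKBKG (ENSG00000269335) encodes NEMO, the regulatory subunit that the canonical pathway requires, and lies on the plus strand of chromosome X from 154541199 to 154565046. It had 12.0, 9.42 and 9.45 CPM in the siControl libraries and 16.9, 15.6 and 21.0 CPM in the siDAB2IP libraries. All 3 siDAB2IP libraries were above all 3 siControl libraries, and replicate 3 was highest. The log2 fold change was 0.79 (SE 0.17, edgeR adjusted p = 0.0142), a 1.73-fold rise with a 95% interval of 0.42 to 1.17 on the log2 scale. Within replicate numbers, the log2 ratio was 0.49, 0.72 and 1.15, and over the 14 alternative fits the log2 fold change lay between 0.62 and 0.90, with 12 calls.

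Whether the counting used the strand is not given in the sources used here, and the part of reads from overlapping or near-identical genes in the count of IKBKG was not tested. IKBKG has a near-identical pseudogene copy, IKBKGP1, to which 12 to 25 counts were assigned in each library (log2 fold change 0.09, edgeR adjusted p = 0.922), and the counting could have split or dropped reads between them. Of the 4 promoter windows of IKBKG, 2 hold the AP-1 motif TGANTCA, which makes 2 of the 15 windows (13.3%) against 7.71% of all windows, and 0 hold the κB consensus. Of these AP-1 matches, the first is at chrX:154541240-154541246, at positions 3 to 9 counted from a RefSeq start, and is not printed. Whether the motif has a part in the change of IKBKG was not tested. The second match is at chrX:154542090-154542096, 122 to 116 bases before another RefSeq start, and is shown in capitals.
IKBKG: cgggggctcaTGAGTCAccggggcttt

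CHUK and IKBKB encode the catalytic subunits IKKα and IKKβ. CHUK (ENSG00000213341), on the minus strand of chromosome 10 from 100188298 to 100229619, was at 23.0, 23.9 and 26.1 CPM in the siControl libraries and at 29.3, 29.96 and 28.0 CPM in the siDAB2IP libraries. The groups did not overlap, and the log2 fold change of 0.26 (95% interval 0.01 to 0.51) did not pass the adjustment over all genes (edgeR adjusted p = 0.15). CHUK shares 37 exon bases at its end with ERLIN1, a more abundant gene on the same strand with a log2 fold change of 0.25 (edgeR adjusted p = 0.0988). IKBKB (ENSG00000104365), on chromosome 8 from 42271302 to 42332653, had 205, 217 and 207 CPM in the siControl libraries and 226, 218 and 254 CPM in the siDAB2IP libraries. The highest siControl and the lowest siDAB2IP library were almost level, and the log2 fold change was 0.15 (95% interval −0.07 to 0.37, edgeR adjusted p = 0.346).

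MAP3K14 (ENSG00000006062), the gene for NIK, whose protein is kept low by degradation, lies on the minus strand of chromosome 17 from 45263119 to 45317145. It was at 14.5, 12.7 and 13.9 CPM in the siControl libraries and at 10.3, 13.6 and 15.8 CPM in the siDAB2IP libraries. The siDAB2IP libraries spanned the controls on both sides, and the log2 fold change was −0.05 (95% interval −0.43 to 0.34, edgeR adjusted p = 0.887). It shares 713 exon bases, or 12.3%, with MAP3K14-AS1 on the opposite strand, which had 1.29 ± 0.433 and 2.42 ± 0.589 CPM in siControl and siDAB2IP (SD, n = 3 libraries a group; log2 fold change 0.91, edgeR adjusted p = 0.0947). Without strand, reads of this pair cannot be told apart. TBK1 (ENSG00000183735), on chromosome 12 from 64451880 to 64502108, had 30.5, 34.9 and 33.2 CPM in the siControl libraries and 31.0, 40.9 and 35.0 CPM in the siDAB2IP libraries. The groups overlapped, with a log2 fold change of 0.12 (95% interval −0.16 to 0.40, edgeR adjusted p = 0.58).

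**Figure D3:**
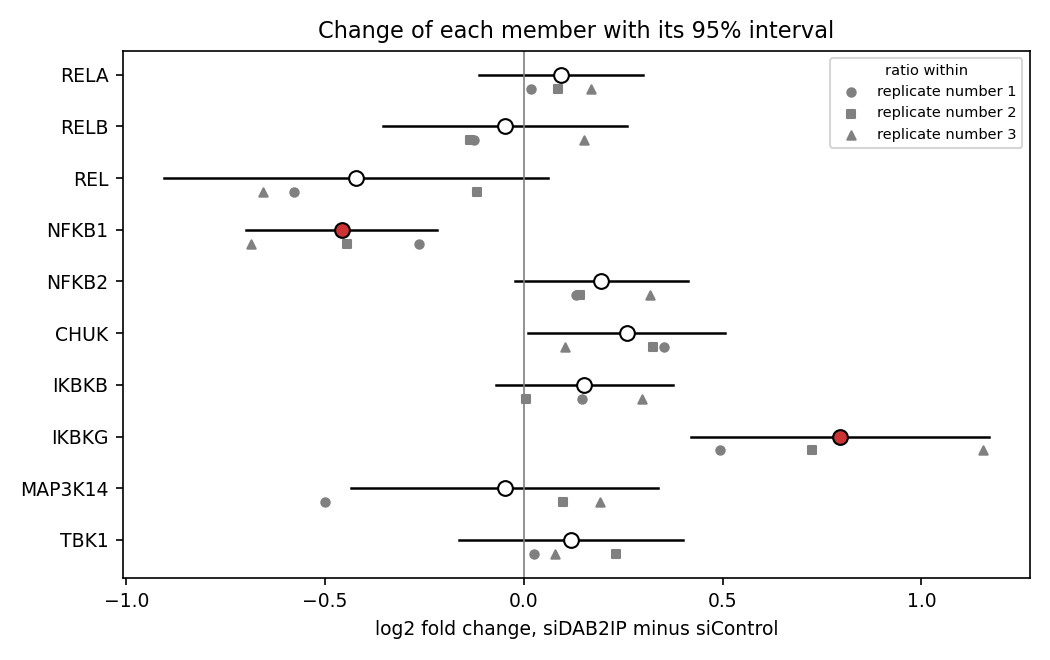
Log2 fold change (siDAB2IP minus siControl) of the 10 genes from edgeR with its 95% interval, filled where the adjusted p is under 0.05, and below each the log2 CPM ratio within each replicate number. The intervals of NFKB1, CHUK and IKBKG do not reach 0, and NFKB1 and IKBKG passed the adjustment over all genes.

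Per length, the levels of the 10 genes spanned a wide range. In the siControl libraries, NFKB2 was highest with 31.9 ± 2.38 FPKM, above 92.4% of the tested genes, followed by IKBKB (18.5 ± 0.627 FPKM), NFKB1 (13.8 ± 0.618 FPKM) and RELA (12.5 ± 0.353 FPKM; SD, n = 3 for each). RELB (7.40 FPKM) and TBK1 (6.83 FPKM) came next and had overlapping ranges, as did CHUK (3.48 FPKM) and IKBKG (2.89 FPKM). MAP3K14 (2.34 FPKM) and REL (1.13 FPKM) were lowest, and every other pair of neighbors in this order was separated in all 3 libraries. REL had a higher level than 24.1% of the tested genes. Its level may be understated, since 43.3% of its exon bases also belong to the annotated transcript AC010733.2, to which 0 counts were assigned in every library. If all REL counts came from the other 7468 exon bases, its level would be 1.98 FPKM, still the lowest of the 10 means.

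In the siDAB2IP libraries, neighbors in this order changed place at 3 points. RELA (13.3 ± 0.903 FPKM) stood above NFKB1 (10.1 ± 1.2 FPKM) in every library, the reverse of the siControl order. IKBKG (5.00 ± 0.796 FPKM) stood above CHUK (4.15 ± 0.145 FPKM), with ranges that no longer overlapped (SD, n = 3 for each). The FPKM ratio of IKBKG to CHUK was 1.03, 0.774 and 0.712 in the siControl libraries and 1.13, 1.02 and 1.48 in the siDAB2IP libraries. The ratios of the groups overlapped, and IKBKG already stood above CHUK in siControl replicate 1. TBK1 and RELB also changed place, but their ranges overlapped in both groups. The FPKM ratio of IKBKG to IKBKB was 0.187, 0.138 and 0.146 in the siControl libraries and 0.238, 0.228 and 0.264 in the siDAB2IP libraries, whereas that of IKBKB to CHUK overlapped between the groups (5.32 ± 0.378 and 4.94 ± 0.581; SD, n = 3 in each group). These ratios and the changes in order were computed after the values were seen and were not tested. The summed FPKM of the 5 kinase-side genes was 33.5, 34.7 and 33.9 in the siControl libraries and 37.1, 38.6 and 42.2 in the siDAB2IP libraries, without overlap.

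The other genes of the pathway were described with a list of 59 partners, all of which were tested. Of these, 3 rose and 11 fell, which is 5.08% and 18.6% of the list, beside 6.55% and 7.65% of all genes tested, and the median log2 fold change was −0.04. A fit that included the replicate number as a block called 5 that rose and 12 that fell, the additional genes being TAB3, NEDD8 and TNIP1. That fit also called more of all genes tested, with 9.59% that rose and 11.4% that fell. The calls varied with the libraries used. With siControl replicate 2 left out, 1 gene rose and 5 fell. Leaving out siControl replicate 1 gave 6 that fell, and leaving out siControl replicate 3, siDAB2IP replicate 1 or siDAB2IP replicate 2 each gave 1 that rose. Of the 14 genes called, 6 (NFKBIZ, IL1R1, TNFRSF12A, BIRC3, IKBKE and BTRC) passed whichever library was left out.

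Of the 6 IκB genes, 3 fell and 1 rose. NFKBIA, which encodes IκBα and is a classic feedback target of NF-κB, was at 194, 181 and 159 CPM in the siControl libraries and at 137, 127 and 120 CPM in the siDAB2IP libraries. Each siDAB2IP library was lower than each control (log2 fold change −0.47, edgeR adjusted p = 0.0188). This call was kept in 3 of 6 fits with a library left out. NFKBIZ (log2 fold change −0.56) and BCL3 (−0.49), which encode nuclear IκB proteins that bind p50 or p52 dimers, fell as well. BCL3 kept its call in 4 of 6 such fits. NFKBIB, the gene for IκBβ, rose by 0.50 on the log2 scale (edgeR adjusted p = 0.0441), but kept this call in 1 of 6 fits with a library left out. NFKBIE and NFKBID were not called, with log2 fold changes of −0.21 and −0.20 (edgeR adjusted p = 0.506 and 0.428). TNFAIP3, a partner gene that is also a feedback target of NF-κB, had a log2 fold change of −0.05 (edgeR adjusted p = 0.853).

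Among the receptors, TNFRSF12A, the receptor for TWEAK and an activator of the noncanonical pathway, rose from 99.8 ± 5.73 to 214 ± 28.5 CPM, and IL1R1, the signaling receptor for IL-1, fell from 61.1 ± 9.59 to 33.5 ± 4.51 CPM (SD, n = 3 libraries a group). TNFRSF1A, the main TNF receptor, had 262 and 275 CPM on average in siControl and siDAB2IP (edgeR adjusted p = 0.728), and LTBR had 367 and 355 CPM (edgeR adjusted p = 0.825). TNFRSF11A, the gene for RANK, had 8.37 and 5.59 CPM, with a log2 fold change of −0.58 (edgeR adjusted p = 0.156) and overlapping groups. Of the genes that hold NIK low, TRAF3 rose (log2 fold change 0.44, edgeR adjusted p = 0.0297, called in 2 of 6 fits with a library left out), BIRC3 fell from 419 ± 14.5 to 209 ± 40.3 CPM (SD, n = 3 libraries a group), and TRAF2 and BIRC2 had log2 fold changes of −0.04 and −0.06. TRAF5, an adaptor of TNF-family receptors, and MALT1, a paracaspase upstream of IKK, fell by 0.59 and 0.42 on the log2 scale. With a library left out, TRAF5 was called in 3 and MALT1 in 2 of 6 fits.

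IKBKE, which encodes IKKε, the closest relative of TBK1, had 33.9, 34.2 and 32.3 CPM in the siControl libraries and 18.8, 20.8 and 21.7 CPM in the siDAB2IP libraries. The groups were far apart relative to their spread, with a log2 fold change of −0.71 (SE 0.11, edgeR adjusted p = 0.00433). OPTN, which encodes a ubiquitin-binding adaptor of TBK1, fell by 0.39 on the log2 scale and was called in 3 of 6 fits with a library left out. BTRC, the F-box protein that recognizes phosphorylated IκB and p100, was at 18.1, 18.3 and 18.1 CPM in the siControl libraries and at 10.5, 12.3 and 8.75 CPM in the siDAB2IP libraries (log2 fold change −0.79, edgeR adjusted p = 0.00998). Its paralog FBXW11 had a log2 fold change of −0.27 (edgeR adjusted p = 0.14). RPS6KA5, which encodes MSK1, a kinase of RELA and histone H3, fell by 0.80 on the log2 scale (edgeR adjusted p = 0.0234). It was called in 2 of 6 fits with a library left out. None of the 4 chaperone and scaffold genes of IKK, HSP90AA1, HSP90AB1, CDC37 and ERC1, passed the threshold in the edgeR fit, while 1 (CDC37) had an unadjusted p under 0.05, as did 30% of all genes tested.

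**Figure D4:**
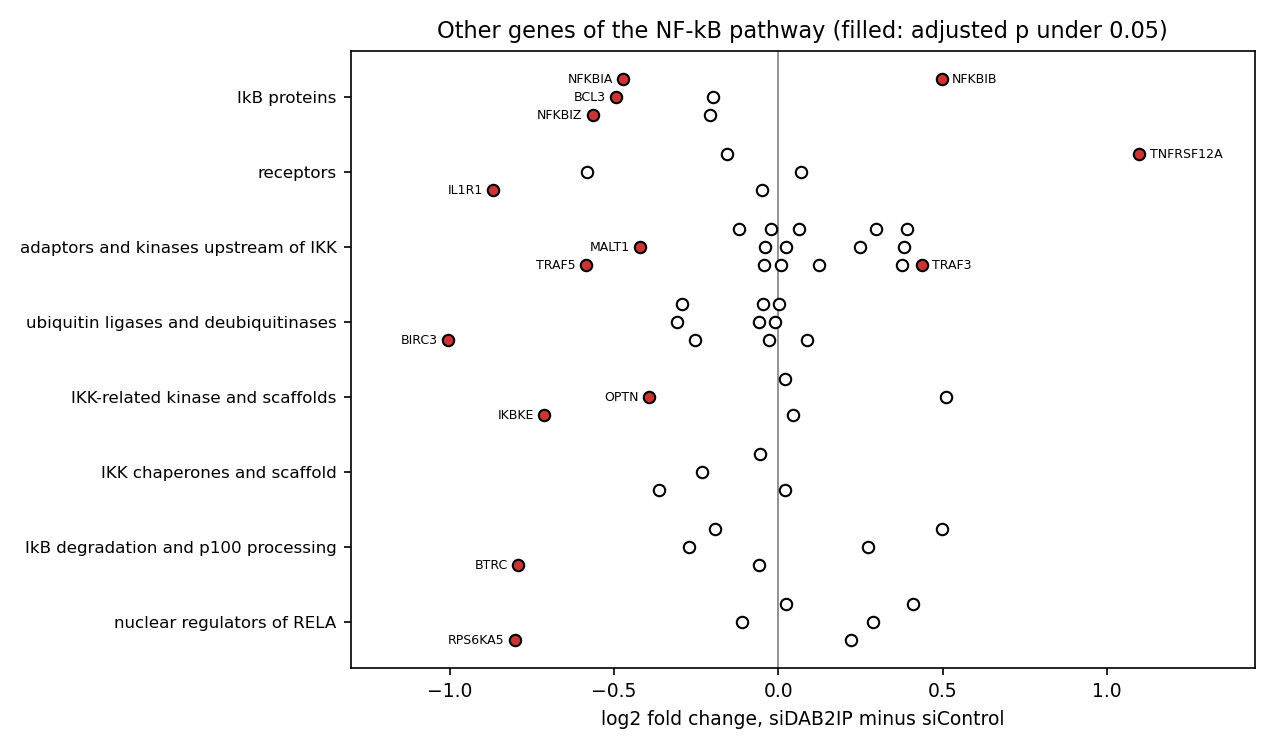
Log2 fold change (siDAB2IP minus siControl) from edgeR of the 59 partner genes by list, filled and named where the adjusted p is under 0.05 and spread vertically for clarity only. TNFRSF12A, TRAF3 and NFKBIB lie to the right of 0 and the 11 genes that fell to the left.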

How the data were processed

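RNA-Seq of 3 siControl and 3 siDAB2IP MCF10A libraries was analyzed, mapped to groups by sample title. The submitters' processing notes list STAR 2.6.1d, featureCounts 1.5.0-p3, DESeq2 1.20.0, edgeR 3.24.3 and hg38. The authors deposited read counts per gene without normalization, and FPKM values, in which the authors divided counts by gene length and a scaled library total. The strand setting is not given in the sources used here. All 10 genes have the coordinates of GENCODE release 29.

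Counts were tested in R 4.3.3 with edgeR 4.0.16 (filterByExpr, TMM, quasi-likelihood test, Benjamini-Hochberg adjustment over 15430 genes, group as the only term). Intervals are at 95%. A count of 3, the limit that 0 counts allow, equals 0.137 to 0.183 CPM, for counting error only. The scripts were tested on simulated data. Genes named are the 10 genes, DAB2IP, every called partner gene, and overlapping or near-identical genes. Partner genes that were not called are named as comparators and were chosen after their values were seen. Some marker and overlapping genes are not reported here. The genes and lists were chosen with earlier results of these data known. Alternatives were RLE factors, library size only, DESeq2 1.42.0, filters, limma 3.58.1 on log2(FPKM + 1) and log2(FPKM + 0.1) for a mean FPKM of at least 1, the replicate block, and leaving out each library.

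Libraries with the same number in their titles deviated together from their group means (correlation of log2 CPM 0.26, 0.15 and 0.25, and between −0.28 and 0.02 for different numbers), which meets the criterion for pairing used here, a correlation over 0.1 in every pair. Pairing entered only the alternatives with the replicate block. The main fit and the main exact tests treated the libraries as unpaired. The labels do not say what a number stands for. Promoter sequences are from RefSeq (GRCh38.p14).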

Additional observations from a re-analysis of the deposited data

How the results depend on the processing

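Of 138 alternative values of the 10 genes, 133 kept their direction and side of the threshold. Most of these values belong to genes that were not called and stayed so, which says little about the 2 calls. NFKB1 and IKBKG each lost significance in 2 of 14 fits, both with a library left out. MAP3K14 ranged from −0.20 to 0.10 when a library was left out, changing sign without siDAB2IP replicate 1 (edgeR adjusted p = 0.749). When each library was left out in turn, 0 to 1 of the 10 genes rose and 0 to 1 fell. In the fits with 0 calls, 1 (without siControl replicate 2) or 2 (without siControl replicate 3) of the 10 were higher, and 1 or 2 lower, at an unadjusted p under 0.05 from edgeR, where 21.7% and 24.4% of all genes tested had such a p in either direction, and DESeq2 on all libraries called 1 in each direction. REL was not tested by limma in either fit, since its mean FPKM was under 1. Of the partner genes, 1 to 4 rose and 5 to 11 fell when a library was left out, and 5 rose with the replicate block, which changed no call among the 10 genes or DAB2IP. Over all genes, leaving out a library gave 264 to 1172 that rose and 459 to 1352 that fell, the replicate block gave 1479 and 1754, and limma on log2(FPKM + 0.1) gave 659 and 758. Scaling by library size only gave 1209 genes that rose and 1091 that fell, and in it NFKB1 and IKBKG kept their calls. With pairing by number, the exact tests of the NFKB2 to NFKB1 ratio, the NFKB1 share and the NFKB2 share each gave p = 0.25, the smallest that 3 pairs allow. Depth limits REL, IKBKG and MAP3K14 most, the least abundant of the 10 in CPM.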
